A study of Homo sapiens with 27 samples.

Results

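A piggyBac transposon can enter its target in either of its 2 orientations, and some genomic positions in these libraries carried insertions in both. A position was counted here when the same library listed a peak on the plus strand and a peak on the minus strand at the same 4-base target. On the 22 autosomes, 270045 of 5162939 listed positions met this rule, summed over 12 libraries, which is 5.23%. They came from 147897 distinct positions of 2869896 listed in all (5.15%). Members were selected on the strand of the peaks and on a listed peak on each strand. All other positions were listed on 1 strand and are called single-orientation positions below. The number of orientations is therefore a description, and tests were run on gene context, target bases, strand preference and differences between transposases.

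PiggyBac is a DNA transposon of insects that its transposase cuts out and pastes into the sequence TTAA. TTAA reads the same on both strands, so the target itself names no orientation. In mammalian cells piggyBac is known to favour open chromatin and the surroundings of transcription start sites. In the self-reporting form a promoter inside the transposon drives RNA outward past one end and into the flanking genome, so the strand of the RNA peak gives the orientation of the insertion.

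The libraries were made from HCT116, an established human colorectal carcinoma line, transfected with such a transposon and then selected in puromycin (3 µg/ml) over 2 weeks. The 12 libraries share the wild-type transposon and differ in the transposase, with 3 replicates each. WT_PB stands for piggyBac and WT_hyPB for its hyperactive form, and WT_rePB and WT_rehyPB stand for the re-engineered versions of these. The labels do not name the changes behind hyperactive and re-engineered, and they do not say whether replicates came from separate transfections, so p-values measure only the spread between these libraries. The study asks how the transposase and the transposon ends affect insertion in mammalian cells.

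Totals of 8118085 to 12051190 reads were recorded for the 12 libraries, as the last column of each file was read, and WT_rePB had the highest totals. WT_hyPB replicates 1 and 2 stood apart from all other pairs, since 74.7% of their peaks were shared on the same strand, against 25.2% between replicate 3 and either of them. The heights of the peaks they shared were also closer, with a chi-square per degree of freedom of 1.21, against 6.11 between replicates 1 and 3. They are called the linked libraries, and results that rest most on their likeness, such as recurrence between replicates, are given with and without the pair. Elsewhere, n = 3 for WT_hyPB, n = 12 and the p-values count them separately unless averaging is stated. With the pair averaged, each tested effect of the transposase kept its side of the threshold. Each library pools many cells, so more cells with an insertion and more RNA per insertion cannot be told apart in a peak's height. The other 15 libraries of the series, with short or symmetric transposons or with the piggyBat system, had file totals of at most 256608 and between 0.723% and 2.49% of their positions in both orientations. They were not used further.

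Target bases could be read in the RefSeq start windows of GRCh38.p14, which hold 250 bases before and 50 bases after an annotated gene start. TTAA occurs in 46.2% of the 33725 autosomal windows. The windows held 27699 TTAA sites, of which 8316 (30.0%) were listed in at least 1 library and 1263 (4.56%) in both orientations in at least 1 library. The 8 stretches that follow are shown because their target was in both orientations in 11 or 12 libraries. Each is written 5′ to 3′ on the plus strand with the 4-base target in capitals, named by the gene with the nearest start.
LOC105371381, chr16:85124155-85124214: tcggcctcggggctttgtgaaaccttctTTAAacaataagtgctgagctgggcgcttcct
IFIT3, chr10:89327838-89327897: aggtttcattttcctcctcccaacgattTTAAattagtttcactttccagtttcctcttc
LOC107986629, chr6:108738207-108738266: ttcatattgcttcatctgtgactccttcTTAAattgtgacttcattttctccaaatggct
DNAJC15, chr13:43023477-43023536: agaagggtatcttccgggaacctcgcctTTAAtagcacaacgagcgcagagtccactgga
SAMD13, chr1:84301556-84301615: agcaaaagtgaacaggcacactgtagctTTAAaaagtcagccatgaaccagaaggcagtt
TK2, chr16:66550140-66550199: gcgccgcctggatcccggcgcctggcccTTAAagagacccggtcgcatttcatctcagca
CCDC43, chr17:44689947-44690006: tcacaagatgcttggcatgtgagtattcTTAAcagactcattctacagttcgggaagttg
PTP4A1, chr6:63571596-63571655: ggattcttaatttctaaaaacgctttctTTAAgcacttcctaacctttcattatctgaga

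The next 4 stretches are shown for contrast. Their target was listed in all 12 libraries, always on the same strand, and they had the highest median heights of their kind, 2 on each strand.
RYK, plus strand in every library, chr3:134250927-134250986: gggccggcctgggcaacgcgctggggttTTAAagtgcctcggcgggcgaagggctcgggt
LOC105370008, plus strand in every library, chr12:116508590-116508649: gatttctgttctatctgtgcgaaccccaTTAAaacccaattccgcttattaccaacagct
GSTO1, minus strand in every library, chr10:104254725-104254784: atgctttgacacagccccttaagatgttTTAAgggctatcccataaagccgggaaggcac
MAPK14, minus strand in every library, chr6:36027567-36027626: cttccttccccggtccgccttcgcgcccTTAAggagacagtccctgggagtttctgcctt

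Height is the highest coverage of a peak, and no listed peak was under 5. At IFIT3, an interferon-induced antiviral gene, the target 131 bases before the start was listed on both strands in all 12 libraries. The minus peak ran from 27 to 89 (median 51.0) and the plus peak from 6 to 30 (median 14.0), and the minus peak was the taller one in all 12. At LOC105371381, a long noncoding RNA gene, both strands were of like height, from 9 to 60 on plus (median 30.0) and from 11 to 56 on minus (median 29.0). Plus was taller there in 9 libraries and minus in 3. At TK2, the mitochondrial thymidine kinase, the plus peak was taller in each of the 11 libraries that listed the target, from 27 to 89 against 6 to 36 on minus. TK2 lies on the minus strand and IFIT3 on the plus strand, so at both genes the taller peak read against the gene. DNAJC15, a mitochondrial chaperone cofactor on the plus strand, had the taller peak on minus in 10 of 11 libraries, with medians of 82.5 on minus and 29.0 on plus.

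The contrast stretches carried tall peaks. At GSTO1, a glutathione transferase of the omega class, the minus peak ran from 70 to 209 (median 158.0) with no plus peak in any library. At MAPK14, the p38 alpha kinase, it ran from 70 to 177 (median 137.0). At RYK, a Wnt-binding receptor on the minus strand, the plus peak ran from 11 to 158 (median 113.5). In all, 172 TTAA sites in start windows were listed in all 12 libraries, and 135 of them were in both orientations in at least 1 library. Another 14 were on plus alone and 21 on minus alone in all 12 libraries. Of these 35 sites, 34 lay in windows of 1 gene strand, and 31 of the 34 read against the gene and 3 with it.

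The share of positions in both orientations differed between the transposases. It was 5.66%, 5.42% and 5.6% in the WT_PB libraries and 6.42%, 6.46% and 6.73% in the WT_hyPB libraries. It was 4.81%, 5.04% and 4.93% with WT_rePB and 3.69%, 3.78% and 3.98% with WT_rehyPB. No group overlapped another. The group means were 5.56% ± 0.126, 6.54% ± 0.170, 4.93% ± 0.113 and 3.82% ± 0.144 (SD, n = 3 each).

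**Figure D1:**
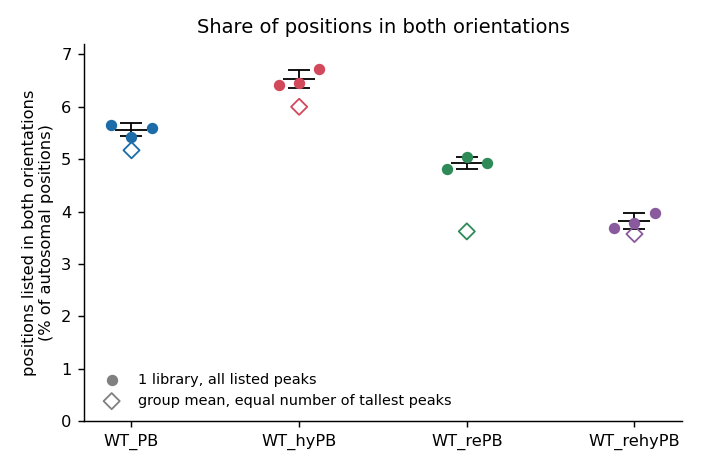
Share of autosomal positions listed in both orientations (y axis, percent) in each of the 12 libraries (filled points) with the mean ± SD of each transposase. Open diamonds give the group mean when each library keeps only its 341625 tallest peaks: WT_hyPB stays highest at 6%, and WT_rePB comes down to 3.62%, next to WT_rehyPB at 3.57%.

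With re-engineering the share fell by 1.68 percentage points on average over both backgrounds (two-sided exact permutation within pairs of groups, p = 0.00500, the smallest this design can give, adjusted p = 0.0167 over 10 tests). The difference was −0.63 points for WT_rePB against WT_PB and −2.72 for WT_rehyPB against WT_hyPB. The hyperactive change gave no common effect (−0.07 points, exact permutation p = 0.760, adjusted p = 0.844), since it went up by 0.98 points in the parental pair and down in the re-engineered pair (−1.11). That difference between the pairs was −2.09 points (permutation after removal of the estimated common effect, p = 0.00500, adjusted p = 0.00625 over 5 tests). The p-values of differences between pairs, here and below, are approximate, since the common effect was estimated from the same libraries.

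The share also moved with how many peaks a library listed. When each library kept its 341625 tallest peaks, as many as the smallest library has, the difference between WT_rehyPB and WT_rePB shrank from −1.11 to −0.05 points. The difference between WT_rePB and WT_PB then grew to −1.55 points, while WT_hyPB against WT_PB stayed at 0.83. The re-engineering effect ranged from −1.99 to −1.63 over the alternatives, and its call was lost in 1 of them, the fit that takes replicate numbers as a block (exact permutation, adjusted p = 0.104). The difference between the pairs fell to −0.87 with the tallest peaks and was past the threshold there too.

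Opposite-strand partners were about as common between replicates as within a library in 3 of the 4 groups. In WT_PB, 10.5% ± 0.227 (SD, n = 3) of the peaks had a peak on the other strand of the same position in the same library. In the other replicates of WT_PB, 10.6% ± 0.904 (SD, n = 3) had one. The pair of values was 12.3% and 12.5% with WT_hyPB, 9.39% and 8.06% with WT_rePB, and 7.35% and 7.03% with WT_rehyPB. In WT_rePB the shares within a library, 9.19% to 9.60%, lay above all shares between replicates, 7.88% to 8.30%. In the other groups the ranges overlapped. WT_rePB was also the group with the most listed positions.

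A partner of the same orientation in another replicate was more common in every group. It was found for 18.2% ± 1.31 of the peaks in WT_PB, 25.2% ± 1.46 with WT_hyPB, 15% ± 0.232 with WT_rePB and 12.2% ± 0.791 with WT_rehyPB (SD, n = 3 each). The linked libraries set these kinds of sharing apart. Replicates 1 and 2 of WT_hyPB shared 74.7% of their peaks in the same orientation, but 12.1% in the opposite one, within the 11.7% to 13% of the other pairs of that group.

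**Figure D2:**
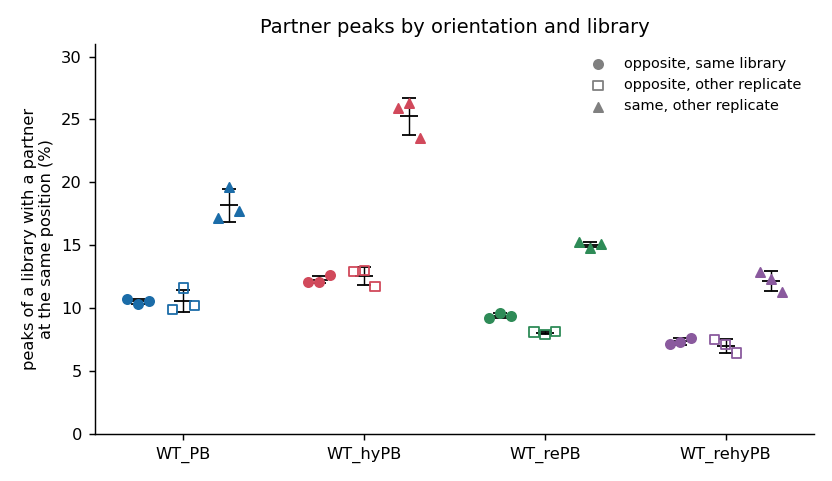
Share of a library's peaks (y axis, percent) with a partner at the same position: on the opposite strand of the same library (circles), on the opposite strand in another replicate (open squares) and on the same strand in another replicate (triangles). Each point is 1 library averaged over the replicates it was set against, without the linked pair, and bars are mean ± SD. Group means of opposite-strand shares run from 7.03% to 12.5% and those of same-strand shares from 12.2% to 25.2%. Within each transposase both opposite-strand means lie under the same-strand mean. The opposite-strand means within and between libraries lie close together except in WT_rePB (9.39% and 8.06%).

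Taller peaks more often had a partner on the other strand. In WT_PB the share rose from 7.47% ± 0.0847 at heights 5 to 6 to 21.7% ± 1.25 at heights of 50 and above (SD, n = 3). In WT_hyPB it went from 8.51% ± 0.200 to 25.2% ± 1.13, in WT_rePB from 7.74% ± 0.168 to 15.3% ± 0.491, and in WT_rehyPB from 5.95% ± 0.208 to 11.9% ± 0.921. WT_PB and WT_rePB were close at the lowest heights and differed most among the tall peaks. The group means rose through all 5 height classes with each transposase.

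**Figure D3:**
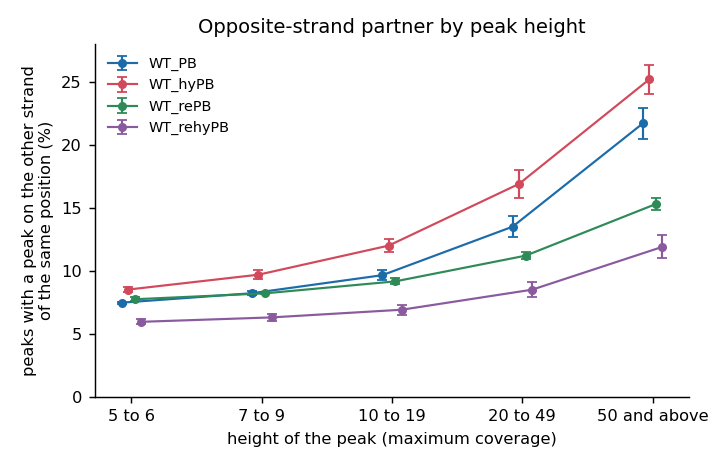
Share of peaks with a peak on the other strand of the same position (y axis, percent) by the height of the peak (x axis, maximum coverage in 5 classes), mean ± SD over 3 libraries per transposase. All 4 lines rise from left to right, WT_hyPB to 25.2% and WT_rehyPB to 11.9%.

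The heights of the strands differed at most positions. The median of the taller strand was 21.0 to 29.0 over the 12 libraries, that of the lower strand 8 to 10, and that of single-orientation positions 9 to 13. The taller strand exceeded the lower by a median of 2.00 to 2.25 times, and by 10 times or more at 3.05% to 5.23% of the positions. Both strands had the same height at 3.05% to 4.60%. The lower strand sat at the listing minimum of 5 in 13.9% to 19.6% of the positions, so these are just inside the rule, and a position whose lower strand fell under 5 was counted as single. Across positions, the log2 heights of plus and minus were nearly unrelated within a library, with Pearson r from 0.03 to 0.10 over 12172 to 29866 positions that share a library.

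On the log2 scale the median height ratio was 1.12 ± 0.02 with WT_PB, 1.08 ± 0.03 with WT_hyPB, 1.02 ± 0.02 with WT_rePB and 1.15 ± 0.03 with WT_rehyPB (SD, n = 3 each). Neither the hyperactive effect (0.04, exact permutation p = 0.210, adjusted p = 0.350) nor the re-engineering effect (−0.02, p = 0.620, adjusted p = 0.775, exact permutation) passed the threshold. The pairs moved in different directions, by −0.04 for WT_hyPB against WT_PB and 0.13 for WT_rehyPB against WT_rePB. This difference of 0.17 did pass (permutation p = 0.00500, adjusted p = 0.00625).

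Which strand was taller tended to recur. Between replicates of 1 transposase, the same strand was taller at 64.2% to 73.5% of the positions that both listed in both orientations. The log2 ratio of plus to minus correlated with r from 0.40 to 0.64 over 1962 to 9933 such positions, as a description, since the positions share their libraries. Between transposases r lay between 0.42 and 0.64, a range much like that between replicates. The linked libraries were closer, with r = 0.86 and the same taller strand at 85.9% of 16651 positions.

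Plus and minus were balanced over the genome. The plus strand was taller at 50% ± 0.280 of the positions (SD, n = 12), with no detectable difference from an even share (exact sign exchange over libraries, p = 0.813, adjusted p = 0.813). Set against the gene, the strands were not balanced. At positions inside genes, the taller strand read in the sense of the gene at 46.0% ± 1.13 (SD, n = 12), under 50% in all 12 libraries (exact sign exchange p = 4.88e-04, the smallest this design can give, adjusted p = 9.77e-04). Where the strands differed 2-fold or more the share was 44.1%. All genes over a position had the same known strand at 70.1% ± 0.703 of the positions in both orientations inside genes (SD, n = 12). The shares in the sense of the gene rest on those of them with unequal heights.

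Single-orientation positions leaned further the same way, with 36.8% ± 1.31 (SD, n = 12) in the sense of the gene and a range of 34.4% to 39.6%. The lean was close to this at low and at high peaks, 38.8% at heights 5 to 6 and 35.5% at 50 and above. In the start windows it was 33.9% ± 1.48 of single sites, and there the taller strand of sites in both orientations read with the gene at 35.9% ± 3.88 (SD, n = 12). The windows hold few sites, 144 to 427 of unequal heights per library.

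Positions in both orientations lay inside genes less often and near gene ends more often than single-orientation positions. Inside any annotated gene the shares were 59.2% ± 0.716 against 64.5% ± 0.415, a difference of −5.36 points. Inside protein-coding genes they were 43.0% ± 0.859 against 50.9% ± 0.518 (−7.89 points). Within 5 kb of either end of a gene they were 39.4% ± 2.01 against 31.8% ± 0.945 (7.57 points). Within 1 kb of either end of a protein-coding gene they were 9.47% ± 1.71 against 5.16% ± 0.634 (4.31 points; SD and n = 12 throughout). Each difference had the same direction in 12 of 12 libraries (two-sided exact sign exchange over libraries, p = 4.88e-04, adjusted p = 4.88e-04 over 6 tests). The 12 libraries share a cell line and many positions, so they are not fully independent.

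**Figure D4:**
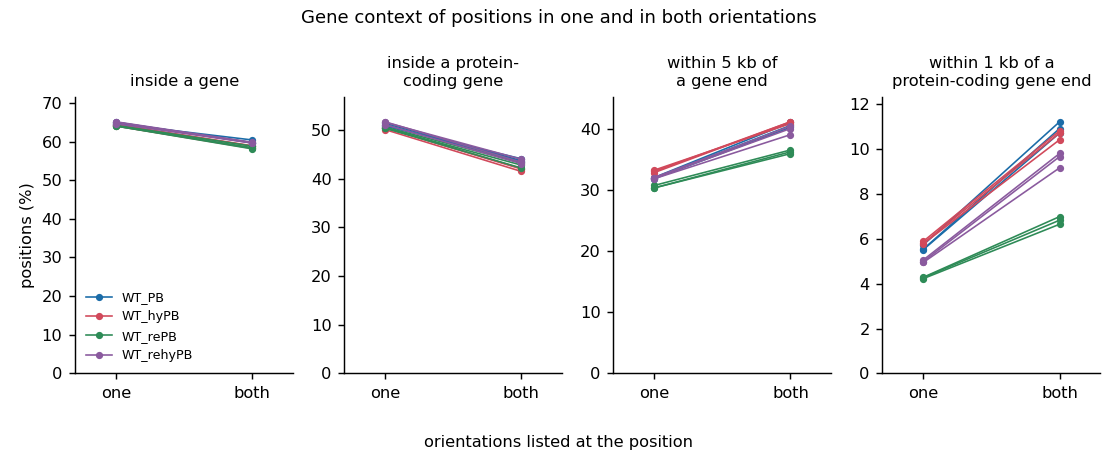
Share of positions (y axis, percent, from 0) in 4 gene contexts for positions in one and in both orientations; each line joins the values of 1 library and is coloured by transposase. All 12 lines fall for positions inside genes (mean 64.5% to 59.2%) and rise near gene ends (31.8% to 39.4% within 5 kb, 5.16% to 9.47% within 1 kb of a protein-coding gene end), and the WT_rePB lines are the lowest near gene ends.

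Single-orientation positions were lower than the taller strand and higher than the lower strand of the others by their median heights in every library, so they were weighted to either. With the heights of the taller or of the lower strand, all 6 tested differences kept their direction and stayed past the threshold. Over all alternatives the gene share differed by −6.48 to −4.61 points and the 5-kb gene-end share by 5.38 to 8.21 points.

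Within 1 kb of an annotated start lay 8.96% ± 2.01 of the positions in both orientations and 4.13% ± 0.7 of the single ones (SD, n = 12), given without a test. The profile of positions in both orientations was highest between 750 and 250 bases before the start, with 1.31% ± 0.257 and 1.29% ± 0.325 of them in its 250-base bins. The bin nearer the start had the higher mean in WT_PB and WT_hyPB, and the farther one in WT_rePB and WT_rehyPB. After the start, 0.996% ± 0.291 lay in the first 250 bases. Single-orientation positions held 0.587% ± 0.0918 between 750 and 500 bases before it and 0.376% ± 0.0724 in the first 250 bases after it. By transposase, 10.8% ± 0.425 of the positions in both orientations lay within 1 kb of a start in WT_PB, 10.2% ± 0.299 with WT_hyPB, 5.86% ± 0.182 with WT_rePB and 8.96% ± 0.374 with WT_rehyPB (SD, n = 3 each). WT_rePB lay lowest, with no overlap with another group. Single-orientation positions had 4.69%, 4.80%, 3.17% and 3.86% in the same order. WT_rePB was lowest among them too, again with no overlap, so this is not particular to positions in both orientations.

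**Figure D5:**
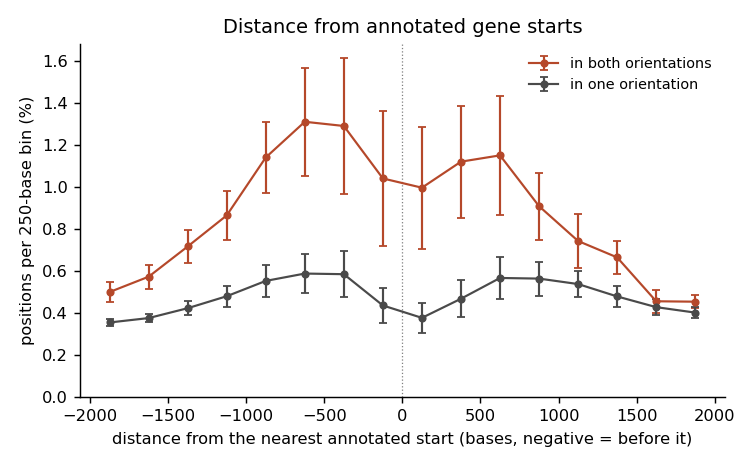
Positions per 250-base bin (y axis, percent of all positions of that kind) by distance from the nearest annotated start (x axis, bases, negative before the start), mean ± SD over 12 libraries. Positions in both orientations lie above those in one orientation in every bin and peak at 1.31% before the start, with a dip at the start in both profiles.

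Of the gene contexts set against the transposase, the gene-end share gave effects past the threshold. It was 40.5% ± 0.418 with WT_PB, 41.0% ± 0.169 with WT_hyPB, 36.2% ± 0.303 with WT_rePB and 39.8% ± 0.725 with WT_rehyPB (SD, n = 3 each). With re-engineering it fell by 2.78 points (exact permutation p = 0.00500, adjusted p = 0.0167), with −4.34 against WT_PB and −1.22 against WT_hyPB. The hyperactive change raised it by 2.02 points (exact permutation p = 0.0100, adjusted p = 0.0250), with 0.46 and 3.58 points in the 2 pairs. These pair values differed by 3.13 points (permutation p = 0.00500, adjusted p = 0.00625). Single-orientation positions had 31.9%, 33.0%, 30.5% and 31.9% in the same order, a narrower span. The excess of positions in both orientations over single ones was 8.64 points in WT_PB and 5.74 with WT_rePB.

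The gene share of positions in both orientations differed by under 2 points between group means. It was 59.9% ± 0.378 with WT_PB, 58.6% ± 0.353 with WT_hyPB, 58.4% ± 0.343 with WT_rePB and 59.6% ± 0.144 with WT_rehyPB (SD, n = 3 each). Neither effect passed the threshold (hyperactive −0.04 points, adjusted p = 0.905; re-engineering −0.25 points, adjusted p = 0.775; exact permutation). The pairs differed by 2.49 points, with −1.28 and 1.2 for the hyperactive change (permutation p = 0.00500, adjusted p = 0.00625).

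Positions in both orientations lay where insertions were dense. Within 5 kb on each side they had 8.78 ± 1.06 other listed positions of the same library, against 4.40 ± 0.597 for single-orientation positions (SD, n = 12). The difference of 4.38 is given without a test, since the density and the rule rest on the same listed peaks. By chromosome the share in both orientations was highest on chromosome 19 (6.66% ± 1.56) and chromosome 17 (6.41% ± 1.03). It was lowest on chromosome 5 (4.44% ± 0.988) and chromosome 13 (4.49% ± 0.946; SD, n = 12), against 5.21% over all autosomes.

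In the start windows the target was TTAA almost without exception. Of 3407 positions in both orientations, summed over the libraries, 5 were off TTAA. Of 24655 single-orientation positions, 646 were. The shares on TTAA were 99.8% ± 0.248 and 97.4% ± 0.443, a difference of 2.44 points in the same direction in 12 of 12 libraries (exact sign exchange p = 4.88e-04, adjusted p = 4.88e-04). The rule asks for both peak edges at the same base, so a peak with a misplaced edge is mostly counted as single. The direction of this difference can thus follow from the rule, and the p-value cannot tell the rule from the sites. The most common other targets of single positions were CTAA and its reverse complement TTAG, with 121 and 107 distinct positions.

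The bases beside TTAA went with how often a site was used. CTTAAG sites were listed in both orientations in at least 1 library most often, 111 of 1305 (8.51%), followed by CTTAAA, read as TTTAAG on the other strand, with 283 of 4158 (6.81%) and TTTAAA with 254 of 4554 (5.58%). GTTAAC was lowest, 18 of 839 (2.15%), then ATTAAC with 57 of 2363 (2.41%). The order was close to that of being listed at all, from 41.8% for CTTAAG to 17.9% for GTTAAC. Among the sites listed in a library, the share in both orientations had another order, with ATTAAT at 14.6% ± 3.35, TTTAAA at 13.8% ± 3.39, CTTAAG at 13.2% ± 4.15 and ATTAAC lowest at 7.17% ± 2.45 (SD, n = 12), and the first 3 of these lie within each other's spread. Each class is counted on both strands, and no class overlaps another. CTTAAG occurs in 4.04% of all start windows, CTTAAA in 11.8%, TTTAAA in 12.3% and GTTAAC in 2.64%.

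TTTAAA was the one flank set as a comparison. Among TTAA positions in start windows it made up 22.9% ± 3.22 of those in both orientations and 19.4% ± 1.97 of single ones (SD, n = 12), a difference of 3.55 points, higher in 12 of 12 libraries (exact sign exchange p = 4.88e-04, adjusted p = 4.88e-04). The difference was smallest in WT_PB, 1.2 ± 1.07 points (SD, n = 3), with 0.0757 in the lowest library. The flank classes did not rank alike in all transposases: per library, 2.76% ± 0.265 of the CTTAAG sites and 1.57% ± 0.224 of the TTTAAA sites were in both orientations in WT_PB, while WT_hyPB had 1.99% ± 0.0766 and 2.30% ± 0.235 (SD, n = 3 each). The 20 bases on each side of the target were 49.5% ± 1.08 A or T at sites in both orientations, 51.4% ± 0.857 at single sites and 58.4% ± 0.193 at TTAA sites not listed in that library (SD, n = 12).

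Positions in both orientations were found again in other libraries more often than single ones. In another replicate of the same transposase, without the linked pair, 59.9% ± 11.9 of them were listed in any orientation. The share was 18.7% ± 4.17 of single-orientation positions and 25.3% ± 7.2 of single ones weighted to the heights of the taller strand (SD, n = 12). This comparison is given without a test, since the rule asks for a second listing and so selects on how readily a position is listed. The share found again in both orientations was 29.7% ± 2.85 with WT_PB, 36.4% ± 2.94 with WT_hyPB, 15.8% ± 0.511 with WT_rePB and 16.1% ± 1.51 with WT_rehyPB (SD, n = 3 each). With the linked pair the WT_hyPB value was 45.1% ± 10.5. With re-engineering this recurrence changed by −21.50 points with the linked pair counted as 2 libraries (exact permutation p = 0.00500, adjusted p = 0.0167) and by −16.72 with them averaged (exact permutation, adjusted p = 0.0250). Leaving out WT_hyPB replicate 3 gave −31.07 points, and leaving out replicate 2 gave −16.59. The hyperactive effect of 7.89 points did not pass the threshold (exact permutation p = 0.0650, adjusted p = 0.130) and was 3.11 with the linked pair averaged. The recurrence values of a group share their pairwise overlaps, so they are not independent. They also depend on how many positions the other replicate listed in both orientations. The p-values for recurrence, here and below, are therefore descriptions.

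Over all 12 libraries, 67.3% of the distinct positions were in both orientations in 1 library only, and 5.03% in 6 or more. Without either of the linked libraries these shares were 70.5% to 70.6% and 3.89% to 3.9% over 11 libraries. By transposase, 73.6% were listed in both orientations with 1 of the 4 transposases and 3.99% with all 4. The same shares over all listed positions are not given here. The shares and counts in this paragraph therefore do not set these positions apart from other listed positions. In all 3 replicates of a transposase there were 3665 positions with WT_PB, 7829 with WT_hyPB, 1893 with WT_rePB and 928 with WT_rehyPB. The WT_hyPB number rests on the linked pair, which had 16651 such positions in common. Over pairs of replicates without the linked pair, the numbers in common were 5988 to 7231 with WT_PB, 9811 and 9933 with WT_hyPB, 4035 to 4411 with WT_rePB and 1962 to 2551 with WT_rehyPB. Of the lists over all 3 replicates, WT_PB and WT_hyPB had 1912 of these in common, which is 52.2% of the WT_PB list and 24.4% of the WT_hyPB list. Over the pair lists without the linked pair it was 43.6% to 46% and 27.7% to 32.1%. WT_rePB and WT_rehyPB had 326 in common, 17.2% and 35.1% of their lists. Positions found in all 3 replicates of 1 transposase and in both orientations in no other library numbered 141 with WT_PB, 762 with WT_hyPB, 63 with WT_rePB and 22 with WT_rehyPB. The linked pair stood apart here too: 4904 positions (29.5%) of that pair's list were in both orientations with no other transposase, against 1220 and 1222 (12.4% and 12.3%) of the other WT_hyPB pairs. With the other transposases 7.28% to 14.7% of the pair lists were, the highest in WT_rePB.

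Positions that recurred in several libraries lay near starts more often than those in 1 library, with no steady rise. The share within 1 kb of a start was 5.07% at positions in both orientations in 1 library, 10.4% at those in 3 libraries, 13.4% at 7, 10.8% at 9 and 14.6% at those in all 12. The share inside a gene went from 60.8% to 58.4%, with 52.2% at 10 libraries. The median height of the lower strand went from 7 to 29.5 over the same range.

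There were 219 positions in both orientations in all 12 libraries. Of these, 128 (58.4%) lay inside a gene, 84 inside a protein-coding gene and 32 (14.6%) within 1 kb of a start. Over all positions in both orientations the means per library were 59.2%, 43.0% and 8.96% in the same order. Single-orientation positions had 64.5%, 50.9% and 4.13%. The share inside a gene was thus close to that of the other positions in both orientations. Another 20 lay over 100 kb from any protein-coding gene, a share not computed for other positions. At 60 of the 219 the same strand was taller in all 12 libraries. PCDH7 and PDE4B held 3 of them each, and MYOF, DDX10, ACSL5, PPP3CA, BFSP1 and ARSG held 2 each.

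The position with the tallest lower strand was chr3:98956755-98956758 in LINC00973, a long noncoding RNA gene 55.1 kb from DCBLD2. Its plus peak ran from 40 to 138 (median 113.0) and its minus peak from 15 to 155 (median 120.5), and minus was taller in 7 libraries. The next, chr19:43765268-43765271, lay outside genes, 1.26 kb from KCNN4, a calcium-activated potassium channel. Plus ran from 79 to 211 there and minus from 19 to 142, with plus taller in 11 of 12 libraries. At chr22:45605317-45605320 in LINC01589, near FBLN1, an extracellular matrix gene, plus ran from 89 to 156 and minus from 46 to 118. At chr10:13302598-13302601, in LOC124902377 and 2.53 kb from PHYH, a peroxisomal enzyme of phytanic acid breakdown, plus was taller in all 12, from 50 to 230 against 9 to 98.

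None of the 12 strongest recurrent positions lay inside a protein-coding gene. The other 8 lay in LOC124904905, LINC-PINT and PGLS-DT, which are long noncoding RNA genes, or between genes, with SOCS6, NEUROD1, SMURF2, SMAD6 and ALAS1 as the nearest protein-coding genes. At chr3:52217625-52217628, 3.30 kb from ALAS1, the first enzyme of heme synthesis, each strand was taller in 6 libraries. At chr18:70416281-70416284, 86.1 kb from SOCS6, a suppressor of cytokine signalling, minus was taller in 11 of 12.

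Of the positions in both orientations with 1 transposase alone, 84% (WT_PB), 87.9% (WT_hyPB), 66% (WT_rePB) and 76% (WT_rehyPB) were also listed with another transposase, on a single strand in each library. Those with the tallest lower strand, in all 3 replicates of 1 transposase and in no other library, are named next. In WT_PB it was in EPS8, an actin regulator, at chr12:15699857-15699860, with a plus peak of 26 to 96 and a minus peak of 35 to 63. It was listed in 11 of the 12 libraries. In WT_hyPB it was chr6:112038001-112038004, 14.8 kb from CCN6, listed in 7 libraries, with plus peaks of 17 to 88 and minus peaks of 23 to 113. In WT_rePB it was chr4:6750704-6750707, 32.0 kb from KIAA0232, listed in 6 libraries. In WT_rehyPB it was chr6:34225293-34225296, listed in 7 libraries, and the second was in ANK3, an adaptor of membrane proteins, listed in 8.

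Among protein-coding genes, PCDH7 stood first by far. PCDH7, a protocadherin of cell adhesion at chr4:30720369-31146800, held 211.4 positions in both orientations per library, 16% of its 1314 listed positions. The count was 232.3 ± 4.73 with WT_PB, 260.0 ± 4.36 with WT_hyPB, 192.3 ± 15.3 with WT_rePB and 161.0 ± 6.24 with WT_rehyPB (SD, n = 3 each). Its share in both orientations was 17.0% ± 0.779, 17.6% ± 0.436, 15% ± 1.29 and 14.3% ± 0.498 in the same order. Both re-engineered groups had lower means than the other 2, as they did in the share over all protein-coding genes.

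PALLD, which encodes the actin-associated protein palladin, came next with 76.1 positions in both orientations per library (13.6% of its positions), from 41 to 109. VTI1A, a SNARE protein of vesicle fusion, held 70.8 (12.2%), from 44 to 97. PHLDB2, PPP3CA (the catalytic subunit of calcineurin) and NSMCE2 (a SUMO ligase of the SMC5/6 complex) held 58.8, 58.6 and 57.6. ZBTB20, a zinc finger repressor, held 56.5 but at a lower share of 8.67%. MPP7, a polarity scaffold, held 55.6, and PDE4B, a cAMP phosphodiesterase, 51.8 at a share of 14.3%. DLGAP1, RAD51B (of homologous recombination), MTHFD1L (a mitochondrial folate enzyme), HMGA2 (an architectural chromatin protein), MSRB3 (a methionine sulfoxide reductase) and MCPH1 (microcephalin) followed with 31.3 to 43.5. The share in both orientations was highest with WT_PB or WT_hyPB for 14 of these 15 genes. Over all protein-coding genes it was also higher with these (4.80% and 5.49%) than with WT_rePB (4.21%) and WT_rehyPB (3.24%). The count therefore does not set these genes apart. The exception was HMGA2, with 15% ± 3.12 with WT_rePB against 14.8% ± 2.44 with WT_hyPB (SD, n = 3 each), within each other's spread. MSRB3 showed a wide range, from 15% ± 1.46 with WT_hyPB to 7.16% ± 0.446 with WT_rehyPB (SD, n = 3).

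The share in both orientations varied widely between genes. Among the 912 protein-coding genes with a mean of 50 or more listed positions, the median share was 4.07%, the lowest decile lay under 1.69% and the highest over 8.67%. ACSL5, an acyl-CoA synthetase for long-chain fatty acids next to VTI1A on chromosome 10, had the highest share, 18%, with 13.8 positions per library and a range of 11.4% to 30.9% over the libraries. SYTL3 followed with 17.1%, MTHFD1L with 17.0%, NT5E (the ectonucleotidase CD73) with 16.8%, MYOF (myoferlin, of membrane repair) with 16.2%, PCDH7 with 16% and ANXA3 (an annexin) with 15.8%. A1CF, a cofactor of apolipoprotein B mRNA editing, had 15.2%, SAMD13 15% and MYPN (myopalladin) 14.9%. SAMD13 is also among the 8 printed stretches. These genes were ranked on this share, so their place is a description.

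Gene lists were described beside all protein-coding genes, of which 10449 of 19122 held a position in both orientations in at least 1 library, with 4.44% ± 0.866 of their listed positions in both orientations (SD, n = 12). In the Wnt pathway list, 19 of 32 autosomal genes held one, and the share was 5.96% ± 1.38. TCF7L2, the main Wnt transcription factor of the gut, had 14.4 per library (9.45%), the kinase TNIK 13.7 (6.10%), and RNF43, a ubiquitin ligase that removes Wnt receptors, 11.6 (12.7%). APC had 0.417 per library among 28.5 listed positions, and CTNNB1, which encodes beta-catenin, 0.25 among 9.17. Of the gut epithelial transcription factors, 12 of 22 held one, at a share of 5.56% ± 1.94. EHF led with 4.75 per library (12%), then GRHL2 with 3.75 and KLF5 with 2.75, among 38.6, 72.5 and 31.6 listed positions. Genes that held none in any library, GATA6, SOX9 and HES1 among them, had few listed positions of any kind. These 3 had 6.33, 4.42 and 2.08 per library, so their lack of a position in both orientations says little.

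Common fragile site genes, which are very long genes prone to breakage under replication stress, had the lowest share of the lists, 3.6% ± 0.836, although 16 of 17 autosomal genes held such a position. RAD51B made up 42.0 of the 100.1 positions per library at 8.6%, while FHIT had 4.33 (2.67%) and CNTNAP2 2.17 (1.28%). Ribosomal protein genes, which are short and strongly transcribed, had 6.94% ± 1.92 with 51 of 73 genes. RPS29 had the most, 1.92 per library, so single genes of this list rest on few positions. In all 4 lists the share was highest with WT_hyPB and lowest with WT_rehyPB, as it was over all protein-coding genes.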

How the data were processed

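Insertion peaks were mapped in HCT116 cells by RNA sequencing of self-reporting transposons, 1 list per library. Per the submitters' processing notes, cutadapt 3.4 and HISAT2 were used, on hg38 and GRCh38.p5; the peak caller is not given in the sources used here. The deposited values used are peak heights, a coverage signal in whole numbers, which the authors' lists give unscaled per the values themselves. Coordinates in the files count from 1. No error of counting is given, since the reads carry no molecular identifiers, and precision is the SD over 3 libraries or over 12.

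A position was the start of a plus peak or the end of a minus peak minus 3, on autosomes. Genes came from RefSeq (GRCh38.p14), 56752 with coordinates and 26245 of them with a strand from the start windows; exons and introns were not assigned. With no genome, target bases were read in the start windows only.

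The effects of the transposase were tested with two-sided exact permutations of libraries within pairs of groups (400 arrangements were possible, smallest p 0.005), differences between kinds of position with exact sign exchange over 12 libraries (smallest p 4.88e-04), all with Benjamini-Hochberg adjustment and a threshold of 0.05. Scripts ran in Python 3.11.15 with numpy 2.4.6, pandas 2.3.3 and matplotlib 3.10.9, and were tested on simulated positions. Genes were named by number of positions (15) and by share among genes with 50 or more positions (10), positions by number of libraries (12) and by transposase (2 each). The members, the gene lists and the tests were chosen with earlier results of these data known. Alternatives were leaving out each library, averaging the linked libraries, other height minimums, equal numbers of peaks, edges within 2 bases and weighting by height. Pairs of replicates and 11 libraries, without the linked pair, were chosen after seeing the data.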

Additional observations from a re-analysis of the deposited data

Results flagged for a closer look

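The effect of the hyperactive change differed between the parental and the re-engineered transposase in 4 of 5 measures of positions in both orientations. Each was tested by permutation of libraries after removal of the estimated common effect (p = 0.00500, the smallest this design can give, adjusted p = 0.00625). The common effect was estimated from the same libraries, so these p-values are approximate. The difference, taken as re-engineered minus parental background, was −2.09 points for the share in both orientations, 0.17 for the log2 height ratio, 2.49 points for the gene share and 3.13 points for the gene-end share. WT_rePB had the most listed positions of the 4 groups, and with equal numbers of peaks the difference in the share was −0.87 points. Recurrence in both orientations differed by −15.03 points at the threshold itself (permutation p = 0.05, adjusted p = 0.05), and by −5.46 with the linked libraries averaged (adjusted p = 0.0800). The recurrence values of a group share their overlaps, so these p-values are descriptions.

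Chromosome X lies outside the rule and carried positions in both orientations as well. The fewest in a library were 157 and the most 549. They made up 2.29% to 5.69% of the positions on that chromosome, which was 0.619 to 0.857 times the autosomal share of the same library and lower than it in all 12 libraries.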

How the results depend on the processing

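Of 180 alternative values of the 10 effects of the transposase, 176 kept their side of the threshold, and 4 lost the call, all with the replicate block, whose smallest p of 0.03125 cannot pass after adjustment here. Deviations of same-numbered replicates correlated between −0.96 and 0.99 over pairs of groups. With 3 libraries a group such values cannot settle whether the numbers pair the libraries, and no label says that they do. With replicate numbers as a block the estimates stayed at 2.02 for the hyperactive effect on the gene-end share (exact permutation p = 0.0625, adjusted p = 0.156) and at −1.68, −21.50 and −2.78 for the re-engineering effects on share, recurrence and gene-end share (p = 0.0312, adjusted p = 0.104 each). The 6 tested differences between positions in both and in one orientation stayed at −5.36, −7.89, 7.57, 4.31, 2.44 and 3.55 points under the block and lost the call, since the smallest p of that exact sign exchange is 0.25 (adjusted p = 0.25). Under every other alternative run, these 6 kept the call. The local density difference moved from 4.38 to 3.59 with weighting to the taller strand and to 3.37 with a minimum height of 10. The shares by strand kept their calls in all 28 alternatives.

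The difference between pairs in recurrence, −15.03, passed the threshold at −16.96 with a minimum height of 10, −15.56 with scaled minimums and −15.82 with the tallest peaks, and ranged from −34.16 (without WT_hyPB replicate 3) to −5.20 (without WT_hyPB replicate 2) with 1 library left out. It also passed without WT_hyPB replicate 3, without WT_rePB replicate 3 (−15.62) and without WT_rehyPB replicate 3 (−15.86). Since the recurrence values of a group share their overlaps, these calls are descriptions. The cause was not tested. TTAA could not be required at all positions without a genome, so that alternative was not run. Depth limits the lower strand: a peak under 5 is not listed, so more positions may carry both orientations than were counted.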
